A study of Sus scrofa with 6 samples.

Results

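PLXNC1, the receptor plexin C1, is described here together with plexin, neuropilin and semaphorin genes in abdominal aorta of miniature swine. Of 10 listed genes of this system, 6 were found by their symbol among 22861 genes of the deposited table: PLXNC1, PLXNA1, PLXND1, NRP1, SEMA3C and SEMA4D. The symbols PLXNB1, PLXNB2, SEMA7A and NRP2 were not matched, and PLXNB1 was reached only through its identifier. All 6 passed the filter on low counts, which left 11673 genes. The genes were chosen by the fold of PLXNC1 between lesion and lesion-free tissue in these same pools, with relatives of PLXNC1 added. The lesion to lesion-free differences of the 6 genes are therefore given as a description without p-values, although these genes were part of the fit over all genes.

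The lesion group was WMS FH, Wisconsin Miniature Swine with familial hypercholesterolaemia, an inherited excess of blood cholesterol, whose abdominal aorta carried atherosclerotic lesions. The other group was WMS normal, swine of the same breed whose abdominal aorta was free of lesions. Each group had 11 animals, whose RNA made up 3 pools, numbered 1 to 3 in the lesion group and 4 to 6 in the lesion-free group. The labels do not tell which animals entered which pool, nor their sex, age or diet. Line and lesion status went together in every pool, so their effects cannot be told apart, and the spread between pools is a spread between mixtures of animals.

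Plexins are large cell-surface receptors that act on small GTPases, the actin cytoskeleton and integrins, and semaphorins are their secreted or membrane-bound ligands. The system was first known for steering growing axons and is used as well by endothelial cells, smooth muscle cells and leukocytes. Plexin C1 binds SEMA7A, a membrane-anchored semaphorin that also engages integrins containing the ITGA1 and ITGB1 chains. The secreted class 3 semaphorins mostly act through neuropilins, which lack signalling domains of their own and pair with A-type plexins or plexin D1.

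Total counts ran from 4650176 in lesion pool 1 to 11442433 in lesion pool 3. Levels are given as CPM, counts brought to a common library size after scaling between pools. Lesion pool 1 stood apart: across genes its log2 CPM had r = 0.79 with lesion pool 2 and with lesion pool 3, whereas those 2 pools had r = 0.91. It had 10754 genes with a count, against 11834 to 13502 elsewhere. Smooth muscle markers were abundant in every pool, with a sum of 25900 to 36570 CPM in lesion pools and 55200 to 67180 CPM in lesion-free pools over the 4 of 7 markers matched. For several genes in which lesion pool 1 was far from the other lesion pools, the log2 fold without it is given as well. In such bulk tissue, more RNA per cell cannot be told apart from more cells that carry the RNA.

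PLXNC1 (ENSSSCG00000000907) was far more abundant in the lesion pools. It stood at 118, 61.9 and 68.2 CPM in lesion pools 1, 2 and 3, from 612, 694 and 747 counts. In lesion-free pools 4, 5 and 6 it stood at 2.48, 0.12 and 4.37 CPM, from 23, 1 and 43 counts. The lowest lesion pool was thus well above the highest lesion-free pool, and within the lesion-free group pool 5 was nearly empty of this transcript. The single count of pool 5 allows 0.00303 to 0.667 CPM (exact Poisson 95% interval, counting error only), which lies below the intervals of pool 4 (1.57 to 3.72 CPM) and pool 6 (3.16 to 5.88 CPM).

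The group means of PLXNC1 were 82.6 ± 30.5 and 2.32 ± 2.13 CPM (SD, n = 3 pools each), a ratio of 35.6. The fitted log2 fold was 5.82 (SE 1.18, 95% interval 3.30 to 8.34), a 56.6-fold difference, which ranked 32 from the top among 11673 genes. Both figures rest on few lesion-free counts, 67 in all against 2053 in the lesion pools. Without lesion-free pool 5 the fitted fold was 22.9, and without lesion-free pool 6 it was 109.9. Without lesion pool 1 it was 47.5.

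**Figure D1:**
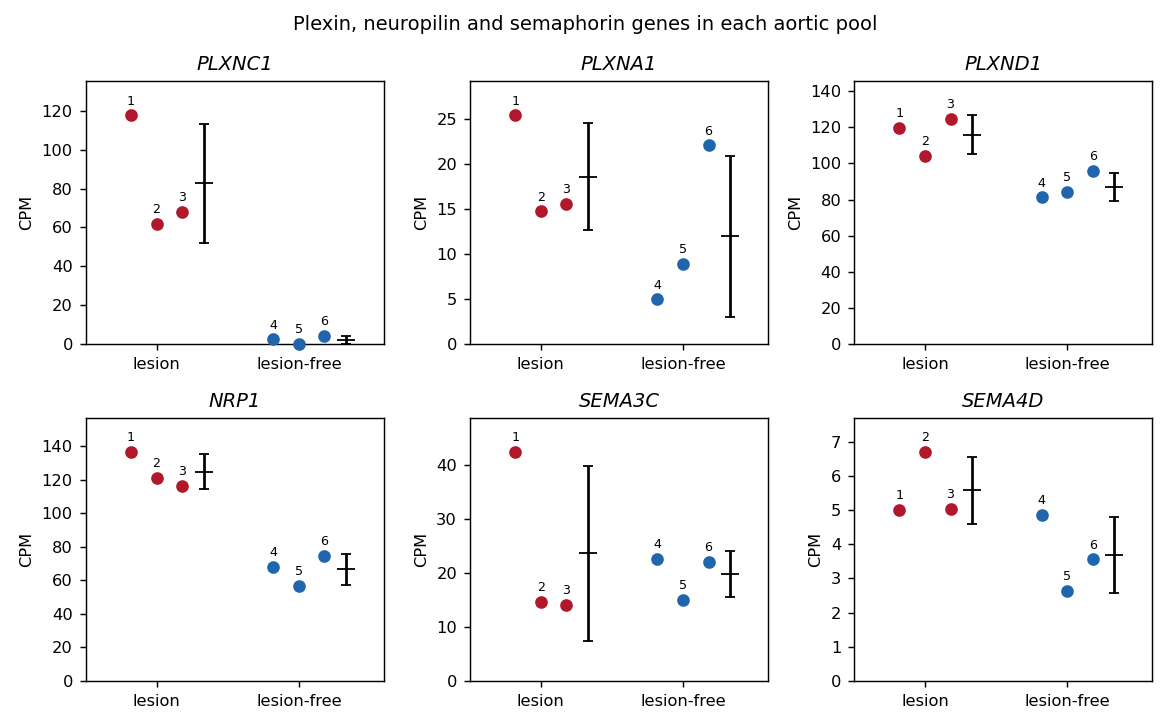
CPM of the 6 genes in each pool, with the pool number beside each point, and the group mean with its SD (n = 3 pools) as a bar to the right. PLXNC1 sits between 61.9 and 118 CPM in lesion pools and at 4.37 CPM or less in lesion-free pools, whereas the values of PLXNA1 and SEMA3C overlap between groups.

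In 4 of the 6 genes (PLXNC1, NRP1, PLXND1 and SEMA4D) every lesion pool lay above every lesion-free pool, a pattern shown by 10.5% of all genes tested. In PLXNA1 and SEMA3C the groups overlapped. Across all genes limma called 1.05% at an adjusted p under 0.05, 0.968% higher and 0.0771% lower in lesion pools, and of the 6 genes it called 1, PLXNC1. That call was lost without lesion-free pool 4 or 6. Since the genes were picked with this contrast in view, neither these counts nor that call is evidence about them. The median log2 fold of the 6 was 0.70, beside -0.002 over all genes tested.

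NRP1 (ENSSSCG00000011102), the neuropilin that serves as co-receptor for class 3 semaphorins and for vascular endothelial growth factor, was the next most raised of the 6 genes. It stood at 136, 121 and 116 CPM in lesion pools 1 to 3 and at 68.0, 56.7 and 74.8 CPM in lesion-free pools 4 to 6. The pools within a group lay close together, and the gap between groups exceeded the spread within either. The means were 125 ± 10.5 and 66.5 ± 9.16 CPM (SD, n = 3 each), and the log2 fold was 0.91 (SE 0.26, 95% interval 0.35 to 1.46).

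PLXND1 (ENSSSCG00000011592), the plexin of endothelial cells that receives SEMA3E directly and other class 3 semaphorins through neuropilins, differed less. Its levels were 119, 104 and 124 CPM in lesion pools and 81.2, 84.4 and 95.8 CPM in lesion-free pools. The groups did not overlap, but lesion pool 2 and lesion-free pool 6 were separated by less than the range within the lesion group. The log2 fold was 0.41 (SE 0.25), and its 95% interval of -0.13 to 0.95 includes no difference. PLXND1 was also the steadiest of the 6 genes, with a pooled SD of 0.13 on the log2 CPM scale, beside 0.17 for NRP1 and a median of 0.57 over all genes tested.

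PLXNA1 (ENSSSCG00000024001), a plexin that partners neuropilin 1 and, in myeloid cells, binds SEMA6D, varied as much within as between groups. It stood at 25.4, 14.7 and 15.5 CPM in lesion pools and at 4.96, 8.86 and 22.0 CPM in lesion-free pools. Lesion-free pool 6 exceeded lesion pools 2 and 3, and the log2 fold of 0.75 (SE 0.51, 95% interval -0.34 to 1.85) does not separate the groups. It ranged from 0.23, when lesion-free pool 4 was left out, to 1.38, when lesion-free pool 6 was left out.

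SEMA3C (ENSSSCG00000023784), a secreted semaphorin that signals through neuropilins with plexin A or plexin D1, showed no steady direction. It stood at 42.5, 14.6 and 14.1 CPM in lesion pools and at 22.6, 14.97 and 22.0 CPM in lesion-free pools. Lesion pool 1 alone was above all lesion-free pools, and lesion pools 2 and 3 were below all of them. The means were 23.7 ± 16.3 and 19.9 ± 4.27 CPM (SD, n = 3 each), with a log2 fold of -0.09 (95% interval -1.01 to 0.83). Leaving out lesion pool 1 gave -0.45, and the sign was positive under 4 of 11 alternative settings.

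SEMA4D (ENSSSCG00000009584), a membrane semaphorin of T cells and platelets that is shed and binds B-type plexins and CD72, was scarce. It stood at 5.00, 6.69 and 5.02 CPM in lesion pools and at 4.85, 2.64 and 3.56 CPM in lesion-free pools, from 22 to 75 counts per pool. Lesion pool 1 (26 counts) and lesion-free pool 4 (45 counts) were nearly equal in CPM, and the 95% interval of the log2 fold of 0.64 ran from -0.84 to 2.12. PLXNB1, a SEMA4D receptor reached through its identifier, stood at 3.84 to 6.34 CPM in lesion pools and 0.97 to 9.46 CPM in lesion-free pools, so that the lesion-free range enclosed the lesion range.

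**Figure D2:**
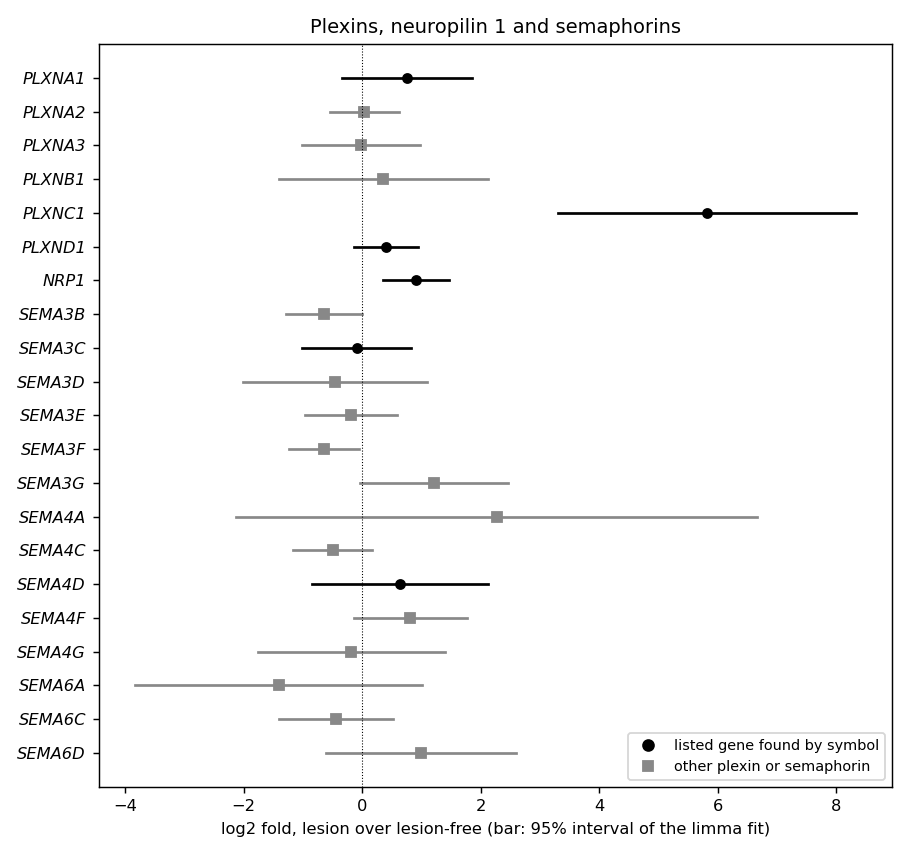
Log2 fold of lesion over lesion-free pools for each tested plexin, NRP1 and each tested semaphorin, with its 95% interval from the limma fit (3 pools per group). Black circles are the 6 listed genes found by symbol and grey squares other genes of the families. The interval of PLXNC1, a gene chosen by its fold in these pools, begins at 3.30, above the estimate of every other gene drawn. The interval of SEMA4A, -2.12 to 6.67, includes the PLXNC1 estimate of 5.82.

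None of the further plexins and semaphorins passed the threshold. Of 21 further family members listed, 19 were matched and 14 tested. Limma called 0 higher and 0 lower (0 higher and 2 lower, SEMA3F and SEMA3B, at an unadjusted p under 0.05). Over all genes tested, 10.6% had an unadjusted limma p under 0.05 in either direction. None of these family members passed the threshold under any of the 11 alternative settings either, limma-trend among them. Their median log2 fold was -0.18. The levels of PLXNA2, the A-type plexin of the SEMA6A pathway, were 100.7, 108 and 103 CPM in lesion pools and 93.0, 83.5 and 133 CPM in lesion-free pools. Its log2 fold of 0.04 had a 95% interval of -0.54 to 0.61. PLXNA3, a receptor for SEMA3F, had a log2 fold of -0.02 (95% interval -1.02 to 0.98), and lesion pool 1 was the lowest of all pools at 7.31 CPM. Without that pool its log2 fold was 0.40 (limma adjusted p = 0.743).

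The secreted class 3 ligands went in different directions, and no change among them passed the threshold. SEMA3F, a repulsive ligand of neuropilin 2, stood at 150, 206 and 254 CPM in lesion pools and at 313, 270 and 360 CPM in lesion-free pools. Every lesion pool was below every lesion-free pool, and the log2 fold was -0.65 (SE 0.28, limma adjusted p = 0.411). SEMA3B, a ligand of both neuropilins that was reached through its identifier, had the same order, at 33.8, 63.0 and 62.8 against 80.4, 75.8 and 95.6 CPM, with a log2 fold of -0.65 (limma adjusted p = 0.465). Without lesion pool 1, the lowest pool for both, the log2 folds were -0.44 for SEMA3F and -0.41 for SEMA3B. Among all genes tested, 8.97% had all lesion pools below all lesion-free pools.

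SEMA3E, the direct ligand of plexin D1, stood at 61.9, 95.5 and 74.0 CPM in lesion pools and at 48.0, 101.2 and 139 CPM in lesion-free pools. The groups overlapped, with a log2 fold of -0.19 (95% interval -0.97 to 0.59). Named outside the rule after their values were seen, SEMA3G and SEMA4F lay on the other side of 0. SEMA3G, a class 3 semaphorin of arterial endothelium, had a log2 fold of 1.21 (limma adjusted p = 0.482) with overlapping groups, and 1.64 without lesion pool 1 (limma adjusted p = 0.17). SEMA4F, a membrane semaphorin, had one of 0.82 (limma adjusted p = 0.545), and its lesion pools of 12.1 to 21.5 CPM lay above its lesion-free pools of 7.11 to 10.6 CPM.

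Partner receptors join plexins or bind semaphorins by themselves. Of these, 1 of 11 tested rose and 0 fell, beside 0.968% and 0.0771% of all genes tested. The list was chosen with earlier results of these data known, so neither these counts nor the call is independent evidence. The 1 that rose was TYROBP, the signalling adaptor DAP12 of myeloid cells, which is known to couple plexin A1 with TREM2. TYROBP stood at 80.9, 55.5 and 103 CPM in lesion pools and at 18.2, 5.27 and 9.45 CPM in lesion-free pools. Its log2 fold was 2.96 (SE 0.46, limma adjusted p = 0.0037), and it was called under all 11 alternatives, with adjusted p between 0.000538 and 0.0161. The summed level of macrophage markers was higher in lesion pools as well (values below), and its part in the TYROBP result was not tested. TREM2, named outside the rule, is the lipid-sensing receptor of macrophages that TYROBP serves. It stood at 8.27, 9.64 and 21.4 CPM in lesion pools and had 0 counts in each lesion-free pool. Taking 3 counts per library as the floor, the mean TREM2 level of the lesion pools was at least 39.9-fold higher. TREM2 missed the threshold (limma adjusted p = 0.0564) and passed it under 5 of 11 alternatives, with adjusted p between 0.000325 and 0.27. It passed the filter on low counts only through the lesion pools, where it was high, so these p-values are a description.

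The integrin chains that bind SEMA7A did not follow PLXNC1. ITGB1 stood at 1793, 1421 and 1221 CPM in lesion pools and at 1193, 1449 and 1525 CPM in lesion-free pools, with a log2 fold of 0.08 (95% interval -0.50 to 0.66) that was -0.06 without lesion pool 1. ITGA1 had a log2 fold of 0.28 (95% interval -0.45 to 1.01), and its groups overlapped. ERBB2, a growth factor receptor that associates with B-type plexins, had one of -0.28 (95% interval -0.95 to 0.39). The median of the 11 partner receptors was 0.36, also with TREM2 at its bound.

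Among the signalling genes that lie downstream of plexins, 0 of 31 tested rose and 0 fell by limma, and limma-trend called 0. At an unadjusted limma p under 0.05, 1 was higher (SH3BP1) and 2 were lower (RRAS and GIPC1), beside 10.6% of all genes tested in either direction. SH3BP1 had 10, 0 and 8 counts in lesion-free pools 4 to 6. It passed the filter on low counts only through the lesion pools, where it was high, so its p-value is a description. The median log2 fold of the 31 was -0.08. RRAS, the small GTPase that plexins inactivate and that keeps integrins active, stood at 149, 236 and 472 CPM in lesion pools and at 1032, 624 and 621 CPM in lesion-free pools. All lesion pools were lower, and the log2 fold was -1.54 (SE 0.39, limma adjusted p = 0.096). Without lesion pool 1, the lowest pool, the log2 fold was -1.14 (adjusted p = 0.225). RRAS passed the threshold when lesion pool 3 was left out (adjusted p = 0.00392), and under no other of the 11 alternatives (adjusted p up to 0.272). The summed level of the smooth muscle markers was lower in lesion pools as well (values above), and its part in the RRAS result was not tested.

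TLN1, the integrin activator talin, had a log2 fold of -0.40 (95% interval -0.99 to 0.19) and CFL1, the actin-severing cofilin, one of -0.42 (95% interval -1.03 to 0.19). Groups overlapped in both, and without lesion pool 1 the log2 fold of CFL1 was -0.20. GIPC1, an adaptor that binds the tail of neuropilin 1 and is named outside the rule, stood at 29.2, 43.9 and 52.4 CPM in lesion pools and at 81.7, 72.7 and 65.4 CPM in lesion-free pools. Its direction was thus opposite to that of NRP1, with a log2 fold of -0.79 (SE 0.30, limma adjusted p = 0.329) and of -0.60 without lesion pool 1.

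**Figure D3:**
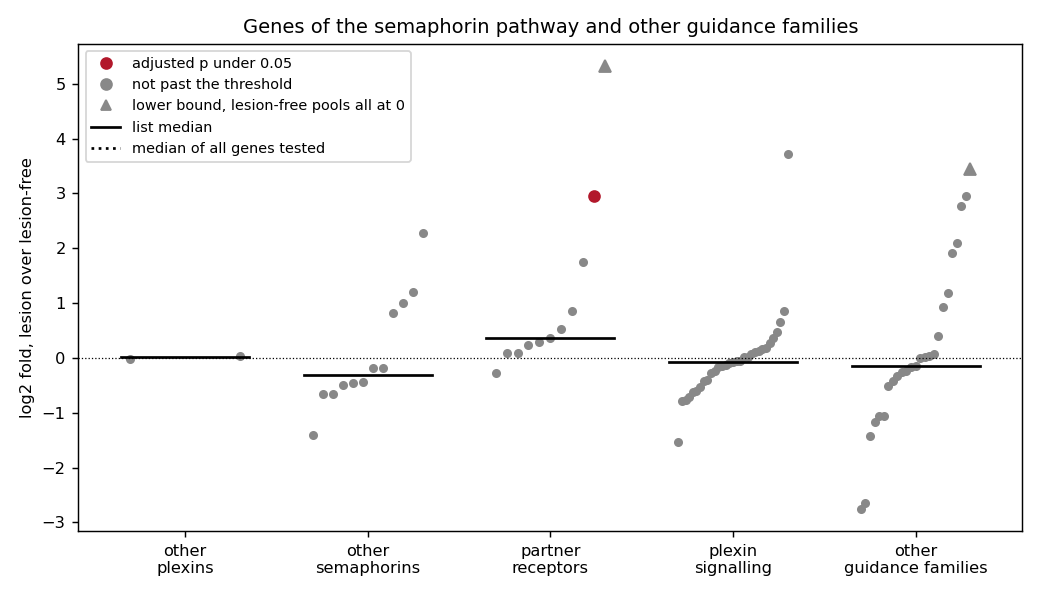
Log2 fold of each tested gene in 5 lists, with the list median as a bar and the median of all genes tested as a dotted line. TYROBP, at 2.96, is the one gene past the threshold, and triangles mark TREM2 and UNC5A at the lower bounds set by a floor of 3 counts per library.

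Most tested macrophage markers were, like PLXNC1, higher in lesion pools. This list too was chosen with earlier results of these data known. Of 12 macrophage markers 10 were matched, 9 tested and 7 called higher by limma, beside 0.968% of all genes tested. The summed level of these markers was 1197 to 2045 CPM in lesion pools and 342, 236 and 184 CPM in lesion-free pools 4 to 6. Within the lesion-free group its order differed from that of PLXNC1, which was highest in pool 6, where the sum was lowest. CD163 was at 0 in 4 pools and at most 0.711 CPM in the others, and CD14 and ITGAM were not called. ITGB2, the leukocyte integrin chain named in the series title, stood at 224, 122 and 219 CPM in lesion pools and at 20.3, 16.3 and 11.7 CPM in lesion-free pools.

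Set against these genes, PLXNC1 differed less between groups. For each 100 CPM of ITGB2 there were 52.5, 50.7 and 31.1 CPM of PLXNC1 in lesion pools 1 to 3, and 12.2, 0.736 and 37.4 CPM in lesion-free pools 4 to 6. Lesion-free pool 6 exceeded lesion pool 3, so on this scale the groups overlapped. For each 1000 CPM of the macrophage marker sum, the values were 57.5, 51.7 and 34.5 CPM in lesion pools and 7.25, 0.509 and 23.8 CPM in lesion-free pools, without overlap. These ratios were added after the data had been seen, and the part of macrophage content in the PLXNC1 difference was not tested.

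The summed level of endothelial markers was higher in all lesion pools, but not every member separated the groups. Of 7 markers 5 were matched, 4 tested and 0 called. At an unadjusted limma p under 0.05, 2 were higher and 0 lower, beside 10.6% of all genes tested in either direction. The part of endothelial content in the NRP1 difference was not tested. The endothelial sum was 307 to 384 CPM in lesion pools and 205 to 215 CPM in lesion-free pools. PECAM1, the adhesion molecule of endothelial cells, made up most of the sum, at 263 to 334 CPM in lesion pools and 153 to 185 CPM in lesion-free pools. VWF, the clotting factor of endothelial cells, overlapped between groups at 12.4 to 18.8 and 4.42 to 24.2 CPM. EMCN, at 0 to 0.365 against 0.479 to 0.647 CPM, was not tested. It had 0 to 4 counts per lesion pool and 4 to 6 per lesion-free pool, too few to compare the groups. The ratios that follow therefore rest largely on PECAM1. For each 1000 CPM of that sum, NRP1 stood at 444, 315 and 347 CPM in lesion pools and 332, 264 and 364 CPM in lesion-free pools. PLXND1 stood at 389, 271 and 371 against 397, 394 and 466 CPM on that scale. The NRP1 ratios overlapped between groups, and the PLXND1 ratios were lower in all lesion pools, the reverse of its order in CPM.

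**Figure D4:**
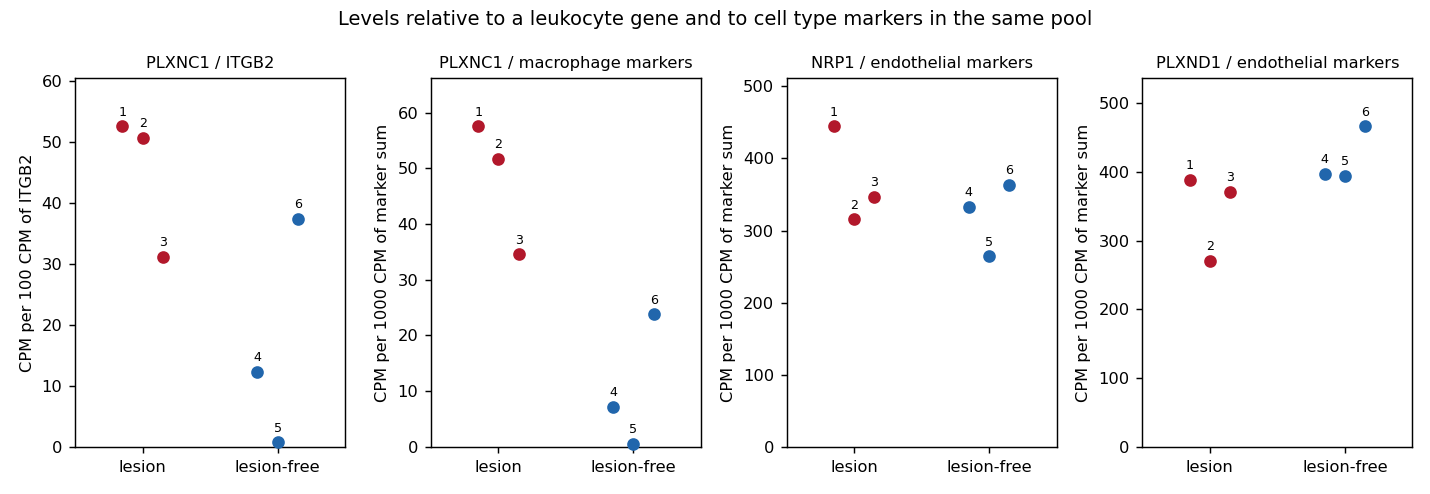
PLXNC1 per 100 CPM of ITGB2 and per 1000 CPM of summed macrophage markers, and NRP1 and PLXND1 per 1000 CPM of summed endothelial markers, in each pool with its number. Lesion-free pool 6 lies among the lesion pools for PLXNC1 over ITGB2, and the NRP1 ratios overlap between groups.

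Markers of other cell types were summed in the same way. The T cell marker sum was 5.62 to 10.95 CPM in lesion pools and 0 to 4.42 CPM in lesion-free pools over 5 of 7 matched markers, a range in which SEMA4D counts were also low. The neutrophil sum was 0, 1.43 and 10.8 CPM in lesion pools 1 to 3 and 0 in lesion-free pools, over 5 of 6 markers. B cell, nerve and adipocyte sums were at most 11.4 CPM in any pool. Lymphatic markers summed to 30.4, 55.3 and 103 CPM in lesion pools and 45.3, 19.0 and 18.4 CPM in lesion-free pools, and those of fibroblasts to 1144 to 1340 and 1275 to 1914 CPM.

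The genes whose pattern over the 6 pools was most like that of PLXNC1 were GPR65, MPP1, B3GNT3, BTK and KIAA1598, with Pearson r of log2 CPM from 0.988 to 0.994. These values describe 6 pools that share the difference between groups. BTK, a kinase of B cells and myeloid cells, stood at 26.1, 9.28 and 14.1 CPM in lesion pools and at 1.40, 0 and 1.32 CPM in lesion-free pools. GPR65, an acid-sensing receptor of leukocytes, stood at 5.19, 3.21 and 5.66 against 0.431, 0 and 0.508 CPM, and KIAA1598 at 51.7, 18.7 and 27.7 against 1.94, 0 and 1.12 CPM. Like PLXNC1, all 5 had their lowest value in lesion-free pool 5, an order that choosing genes by r with PLXNC1 favours. B3GNT3, a glycosyltransferase, stood at 41.9, 37.5 and 45.6 against 11.9, 3.23 and 11.0 CPM. MPP1, a membrane scaffold protein, stood at 42.6 to 44.5 against 17.1 to 28.1 CPM, a ratio of means of 1.79 beside 35.6 for PLXNC1, so a high r did not mean a like fold.

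The isoform table tied 2 transcripts to PLXNC1. PLXNC1-201 carried 96.9%, 100% and 96.9% of the gene's counts in lesion pools 1 to 3 and all counts in the lesion-free pools. PLXNC1-001 had 19 counts in lesion pool 1, 23 in lesion pool 3 and 0 elsewhere. The 43 counts of lesion-free pool 6 allow it a share of up to 8.22% (exact 95% binomial interval from 0), so its absence there was not detectable as a difference from the 3.1% of lesion pool 1 (1.88 to 4.81% by the same method). Shares are estimates divided among overlapping transcripts, and these intervals cover counting error only.

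NRP1 had 7 isoforms, of which NRP1-003 led in each pool with 83.3%, 77.9% and 81.0% in lesion pools and 97.9%, 80.3% and 85.6% in lesion-free pools. The remainder fell to a different isoform in each lesion pool. In lesion pool 1 it went to NRP1-004 (16.3%), in lesion pool 2 to NRP1-201 (19.0%) and in lesion pool 3 to NRP1-001 (16.7%). NRP1-001 was at 0 counts in lesion pools 1 and 2 and carried 19.7% in lesion-free pool 5. SEMA4D behaved alike on few counts: SEMA4D-201 led in 5 pools with 73.5% to 98.7%, and in lesion pool 1 all 26 counts went to SEMA4D-005. Without lesion pool 1 the difference in the mean share of SEMA4D-201, lesion minus lesion-free, went from -15.03 to 17.8 percentage points. PLXNA1, PLXND1 and SEMA3C each had a single tied isoform.

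**Figure D5:**
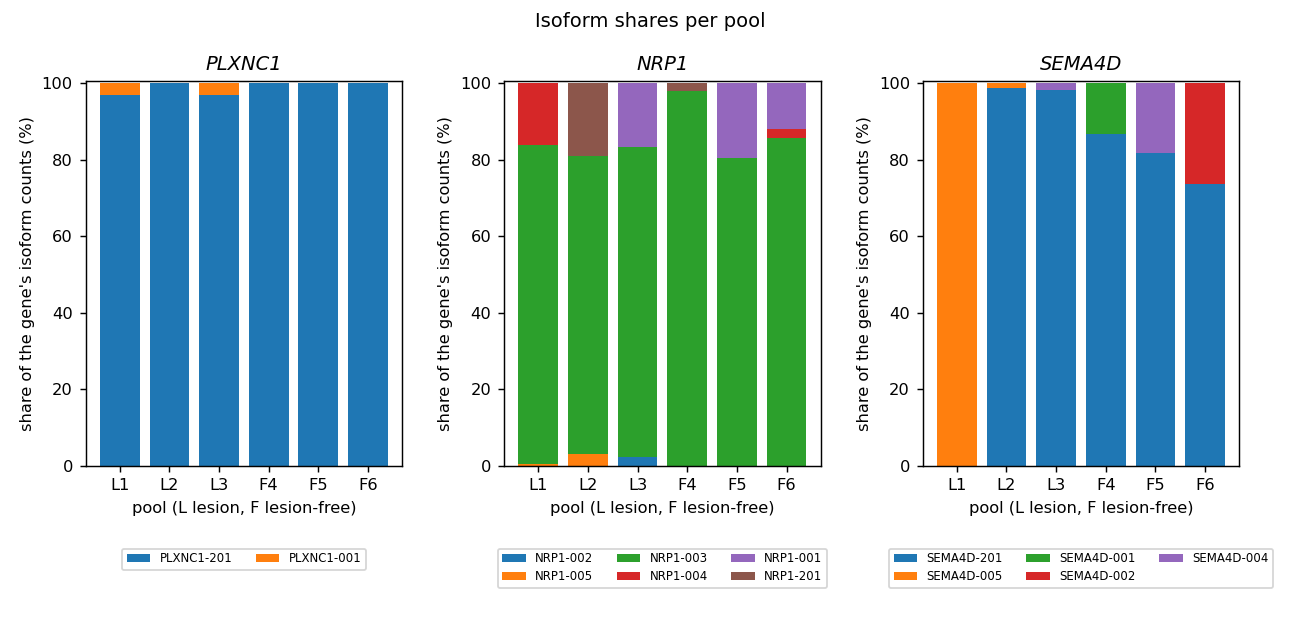
Share of each gene's isoform counts in percent for PLXNC1, NRP1 and SEMA4D in lesion pools (L1 to L3) and lesion-free pools (F4 to F6). The leading isoform is the same in all pools for PLXNC1 and NRP1, the minor isoforms of NRP1 change from pool to pool, and lesion pool 1 stands apart for SEMA4D.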

How the data were processed

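Total RNA of 6 pools was measured by RNA sequencing with a stranded total RNA kit, per the labels' protocols. The authors deposited whole-number estimated read counts per gene and per isoform. RSEM 1.3.0 and edgeR are named, with no role, per the submitters' processing notes. The aligner is not given in the sources used here, nor is the genome build. Values of 1000 and more carried commas, which were removed. Because of them the columns were recorded as another unit, and count models were not run.

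Genes were tested with limma 3.58.1 in R 4.3.3 (voom weights, 0.5 added to each count, robust moderation). A gene needed the CPM of 10 counts in a median library (1.00 CPM, on plain library totals) in at least 3 pools and 15 counts in all. Scaling factors came from trimmed means of M values (30% of M and 5% of A trimmed), and CPM uses these scaled totals. Log2 folds are lesion over lesion-free. P-values are two-sided and adjusted for all 11673 genes by Benjamini-Hochberg, with calls made below 0.05. They set the group difference against the spread between pools, moderated across genes, and not against the spread between animals. A floor of 3 counts was 0.577 CPM in lesion pool 1 and 0.268 to 0.359 CPM elsewhere.

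List genes were matched by symbol, otherwise by identifier in a reference of names. The genes, the 5 pathway lists beside the listed genes and the 10 marker lists were chosen with earlier results of these data known. The text names the listed genes, called pathway genes, up to 3 others per list of highest mean CPM, the 5 genes of highest r with PLXNC1, and ITGB2. Isoforms were tied by name where their counts summed to the gene's within 1 count, and 1 further transcript named for SEMA3C was left out. The test was checked on simulated counts with a fixed spread beyond sampling noise, the same in every gene and pool. This spread was not estimated from these data, and genes of low expected count were given no difference. That check thus does not cover a pool that stands apart, such as lesion pool 1. Pools of a group differed beyond sampling noise (chi-square per degree of freedom 20.7 to 86.9). Alternatives were other scalings, no filter, limma-trend, sample quality weights and leaving out each pool. No protein, promoter or genome sequence was used here.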

Additional observations from a re-analysis of the deposited data

How the results depend on the processing

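The log2 folds of PLXNC1, NRP1, PLXNA1, PLXND1 and SEMA4D were positive under all 11 alternatives, and that of SEMA3C was positive under 4 and negative under 7. PLXND1 moved by more than its spread between pools only with plain library totals (0.58), a setting that raised the median of all genes tested to 0.16. Leaving out 1 pool gave 4.51 to 6.78 for PLXNC1, 0.80 to 0.99 for NRP1, 0.35 to 0.49 for PLXND1 and -0.45 to 0.16 for SEMA3C. Over all genes 113 were higher and 9 lower. Without the filter these were 171 and 17, with sample quality weights 213 and 40, and leaving out 1 pool 55 to 150 and 4 to 36. The lower count was 5 without lesion pool 1, 36 without lesion pool 3, 21 without lesion-free pool 4 and 4 without lesion-free pool 5 or 6. The higher count was 65 without lesion-free pool 5 and 55 without lesion-free pool 6. The share of calls that were higher, 92.6%, was 73.7% without lesion pool 3 and 81.1% without lesion-free pool 4. The higher partner receptors numbered 2 rather than 1 (TREM2 added) with plain totals, median-of-ratios factors, no filter, limma-trend or quality weights. In the other guidance families 1 gene (UNC5A) was higher without the filter or with quality weights, rather than 0. Among plexin signalling genes 0 to 1 (RRAS) were lower when 1 pool was left out. Of the 5 genes most like PLXNC1, 3 remained with plain totals. The cause of these changes was not tested. With 1 to 43 lesion-free counts of PLXNC1 per pool, its isoform shares there are imprecise, whereas the spread of its level between lesion-free pools went beyond counting error. No paired analysis was made, because the groups were different animals of different lines and the labels name no pairs of pools.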

Other observations

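The other families of guidance genes were measured alongside, with 25 of 40 listed genes tested. Limma called 0 higher and 0 lower (3 higher and 1 lower at an unadjusted p under 0.05), and the median log2 fold was -0.15. The share of all genes tested with an unadjusted limma p under 0.05 was 10.6%. SLIT3 and SLIT2, secreted ligands of the ROBO receptors, had log2 folds of -0.43 (95% interval -1.14 to 0.29) and 0.07 (95% interval -0.61 to 0.75). RGMA, a repulsive ligand of neogenin, stood at 31.9, 72.8 and 59.3 CPM in lesion pools and at 141, 134 and 96.5 CPM in lesion-free pools, without overlap (log2 fold -1.17, limma adjusted p = 0.129). Without lesion pool 1, the lowest pool for both, the log2 folds were -0.89 for RGMA and -0.07 for SLIT3.

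The following genes were chosen after their values were seen. UNC5B, a netrin receptor, stood at 7.69, 15.3 and 27.2 CPM in lesion pools and at 3.67, 3.11 and 4.57 CPM in lesion-free pools (log2 fold 2.10, limma adjusted p = 0.26). Without lesion pool 1 the log2 fold of UNC5B was 2.41 (limma adjusted p = 0.0701). UNC5A, its relative, stood at 3.56 ± 1.26 CPM in lesion pools (SD, n = 3) and had 0 counts in the lesion-free pools. Its lesion mean was thus at least 10.8-fold higher against a floor of 3 counts per library (limma adjusted p = 0.131). UNC5A too passed the filter only through the lesion pools, so that p-value is a description. NTN4, a netrin of basement membranes, stood at 75.6, 39.6 and 34.1 CPM against 18.4, 16.3 and 24.7 CPM, without overlap (log2 fold 1.18, limma adjusted p = 0.214). Without lesion pool 1, the highest pool for NTN4, its log2 fold was 0.91 (limma adjusted p = 0.323). NTN1, the ligand of the UNC5 receptors, was at 0 to 2.32 CPM in every pool.

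Zero counts were unevenly spread over the pools. Of 88 tested genes on the guidance and signalling lists, the listed genes included, 9 (10.2%) had 0 counts in lesion pool 1 and a count in each other pool. Over all genes tested that share was 8.34%, against 0.163% and 0.137% for lesion pools 2 and 3. SEMA6A, a membrane semaphorin, was among the 9, at 0 CPM in lesion pool 1 and 6.69 to 11.3 CPM elsewhere.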
